A study of Homo sapiens with 2 samples.

Results

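The alpha-arrestins described here are the arrestin-domain genes ARRDC1, ARRDC2, ARRDC3 and ARRDC4 and the thioredoxin-interacting protein gene TXNIP. They were measured in EOL-1 cells, an established human cell line from an eosinophilic leukaemia that expresses the fusion kinase FIP1L1-PDGFRA. The 2 groups were cells kept for 4 h with 100 nM Glivec, the trade name of imatinib, which inhibits the kinases ABL, KIT and PDGFR, and untreated cells, both grown in RPMI medium with serum and antibiotics and washed with PBS before total RNA was extracted. Each group is 1 Affymetrix array of 1 cell line, so the differences carry no replicate error and none of them was tested. Members were all probe sets annotated to one of these symbols alone, which gave 8 probe sets for 5 genes among 41097 probe sets for 19775 genes. The genes were selected on their Glivec against untreated signals, so the values below are a description of these 2 cultures.

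Alpha-arrestins are adaptor proteins. Most of them recruit ubiquitin ligases of the NEDD4 family through PPxY motifs and so direct receptors and transporters at the cell surface to endocytosis. TXNIP also binds and inhibits thioredoxin, and it lowers glucose uptake by acting on the glucose transporter GLUT1. Its transcription is raised by glucose through the factors MondoA (gene MLXIP) and MLX, which bind a paired E-box-like sequence called the carbohydrate response element, and ARRDC4 is another known target of MondoA. TXNIP is also known as a target of FOXO factors, forkhead proteins that AKT keeps out of the nucleus.

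The 5 alpha-arrestins did not move as a block: ARRDC3 and TXNIP were higher with Glivec and ARRDC4 was lower. ARRDC1 and ARRDC2 lay within 2-fold in the signals as deposited. At least 2-fold higher were 2 of 5 members, beside 398 of 12705 measured genes (3.13%), and at least 2-fold lower was 1 of 5, beside 334 genes (2.63%). A gene counts as measured when its brightest probe set exceeds a floor of 13.7 (the median signal of all probe sets but controls) on at least 1 array. Because this contrast chose the members, nothing is read from these shares. In RNA from whole cultures, less transcript in each cell and fewer expressing cells cannot be told apart. The split of all genes depends on the scaling. Of 12678 genes measured with quantile normalization, 290 were higher and 396 lower. Of 12705 genes, 272 and 448 were so with median centring, and 207 and 475 after a loess trend was removed. With scaling to the hybridisation spike-ins, 26 of 11748 genes were higher and 2291 lower.

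The arrays carried equal trimmed means, but the 18 hybridisation spike-in probe sets had a median log2 ratio of 0.74 (range 0.42 to 0.89), higher on the Glivec array. All ratios here are therefore relative to the bulk of genes, whose median log2 ratio was 0.10, and the values scaled to the spike-ins close the account. The ratio of 3' to 5' signal, a sign of RNA quality, was 1.04 in Glivec cells and 0.925 in untreated cells for GAPDH, and for ACTB 1.23 and 1.17. Of the 11 markers fixed for the eosinophilic line, 8 had a probe set annotated to them alone. Of these, 6 were measured and went in both directions. PRG2, which encodes eosinophil major basic protein, had signals of 6302 with Glivec and 4744 without (log2 ratio 0.41), with the eosinophil granule ribonuclease gene RNASE2 at 0.42 and MPO, the myeloperoxidase of myeloid granules, at 0.34. The eosinophil peroxidase gene EPX was at least 1.99-fold higher, from the floor in untreated cells. PDGFRA, the kinase gene of the fusion, was at -0.60 (397.7 with Glivec against 602.4; another probe set was at 0.38), and CLC, the Charcot-Leyden crystal gene, at -0.50 as a bound. The other 2 with a probe set, the interleukin-5 receptor gene IL5RA and SIGLEC8, were at or below the floor on both arrays. Of 10 markers of other blood cells, 8 had a probe set of their own and 4 were measured. At least 2-fold higher was 1 and 0 were lower, beside 3.13% and 2.63% of all measured genes. The B cell gene CD79A had signals of 94.9 with Glivec and 60.03 without (0.66, or 0.61 by its other probe set), and the monocyte gene CD14 was at -0.23. The globin gene HBB was at least 2.22-fold higher by its representative probe set, with others down to -0.06, and the T cell gene CD3E was at -0.62, at the floor with Glivec. The signals of the 8 such markers with a probe set summed to 357.4 with Glivec and 328.3 without, and their part in the results was not tested.

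ARRDC3 encodes an adaptor known to promote ubiquitination and sorting of cell surface proteins, integrin beta4 among them. Its 1 probe set had a signal of 299.1 with Glivec, against 54.3 in untreated cells. That is a 5.51-fold higher signal, a log2 ratio of 2.46, and both values lie above the floor. Only 4 of the 12705 measured genes, ARRDC3 included, had a log2 ratio this large. Of 4 equal classes of genes by mean signal, the one that holds ARRDC3 had 4.88% of its genes at least 2-fold higher. ARRDC3 rests on 1 probe set, so not even the spread between probe sets is known for it. Among 5603 genes read by more than 1 probe set above the floor, the pooled SD of log2 ratios between probe sets of a gene was 0.33, which leaves out variation between cultures.

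RefSeq lists 2 start sites for ARRDC3. The window before the downstream start holds a forkhead match (GTAAACA, read here from the other strand as TGTTTAC), 29 to 23 bases before the start. The stretch is shown because ARRDC3 had the largest ratio of the family, with the match in capitals (build GRCh38.p14, chr5:91380108-91380137, minus strand, RefSeq).
ARRDC3: agcccggcactTGTTTACcacggcgcggcc

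The antisense transcript ARRDC3-AS1 has a probe set of its own, with signals of 26.3 with Glivec and 23.9 in untreated cells (log2 ratio 0.14). The sense gene was thus high on the Glivec array while its antisense neighbour had close to equal signals on both. The antisense probe set is dim, not far above the floor of 13.7, which limits this comparison.

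**Figure D1:**
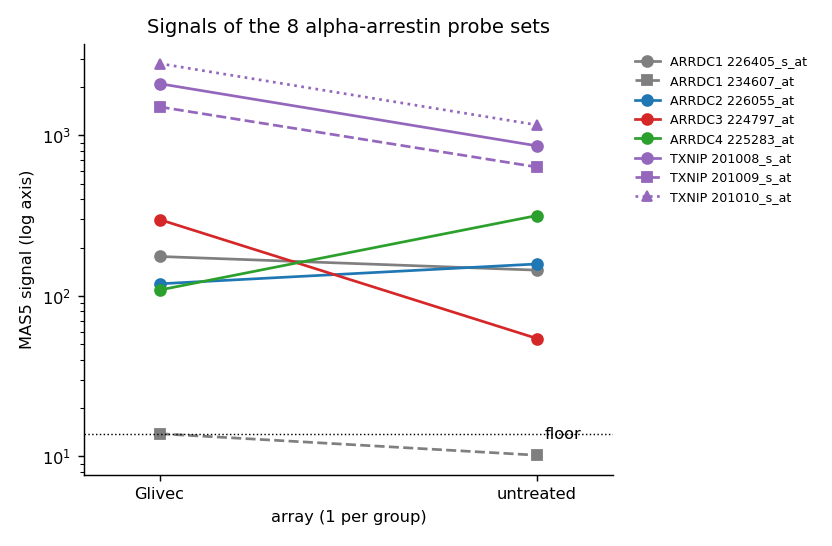
MAS5 signal (log axis) of each of the 8 probe sets on the Glivec array (left) and the untreated array (right), with probe sets of a gene in 1 colour and the floor of 13.7 dotted. The ARRDC3 line joins 299.1 with Glivec and 54.3 untreated and crosses the ARRDC4 line, which slopes the other way. The height of a line also depends on how well its probes bind, so levels of different genes cannot be ranked from it.

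TXNIP was higher with Glivec by all 3 of its probe sets. The signals were 2804 with Glivec against 1162 in untreated cells by the brightest, which represents the gene. The next gave 2101 with Glivec against 861 untreated. The dimmest had 1507 with Glivec and 635 untreated. In this order the log2 ratios were 1.27, 1.29 and 1.25, or 2.41-fold, 2.44-fold and 2.37-fold. Their mean was 1.27 with an SD of 0.020 over 3 probe sets. The 3 probe sets read the same 2 RNA samples and carry the suffix _s_at, which marks probes that can match several transcripts, so they are repeat readings and not replicates. Whether their target stretches overlap, which would by itself make this SD small, was not tested. A log2 ratio at least as large was found for 133 genes (1.05%), TXNIP included, and in the brightest signal class, which holds TXNIP, 0.756% of genes were at least 2-fold higher.

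The promoter of TXNIP is shown because it holds both kinds of site named above. Capitals in the 80 bases below mark a CCAAT box on the other strand, next the forkhead match, then a second CCAAT box. The capitals at the right are the carbohydrate response element, searched as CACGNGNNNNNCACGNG. The forkhead match lies 124 to 118 bases before the upstream start and the carbohydrate response element 88 to 72 bases before it (GRCh38.p14, chr1:145996640-145996719, minus strand, RefSeq).
TXNIP: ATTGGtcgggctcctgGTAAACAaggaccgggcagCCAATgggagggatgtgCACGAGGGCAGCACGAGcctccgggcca

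ARRDC4, an adaptor close to TXNIP in sequence and likewise known to respond to glucose, went the other way. Its 1 probe set had a signal of 108.8 with Glivec, against 317.0 in untreated cells. The signal was thus 2.91-fold lower, a log2 ratio of -1.54. A log2 ratio as low or lower was found for 98 measured genes (0.771%), ARRDC4 included, and 3.56% of the genes in its signal class were at least 2-fold lower. Between TXNIP and ARRDC4 the log2 ratios differed by 2.81, or 7.03-fold, and between ARRDC3 and ARRDC4 by 4.01, or 16.1-fold. With 1 array per group, neither difference has an error.

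The ARRDC4 window held neither the carbohydrate response element nor the forkhead sequence in the exact spelling searched. It held a single E-box (CACGTG) 210 to 205 bases before the start. Near the left end of the stretch below, gtaaacg differs from the forkhead spelling GTAAACA only in its last base. The stretch is shown for comparison with TXNIP, with the E-box and a CCAAT box on the other strand (ATTGG) in capitals (GRCh38.p14, chr15:97960478-97960557, plus strand, RefSeq).
ARRDC4: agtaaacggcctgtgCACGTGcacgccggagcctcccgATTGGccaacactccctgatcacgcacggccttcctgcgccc

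ARRDC1 takes part in the budding of vesicles from the plasma membrane, where it recruits the ESCRT protein TSG101. Its brighter probe set had a signal of 176.1 with Glivec and 144.7 in untreated cells, a log2 ratio of 0.28 or 1.22-fold. The other stood at 13.8 with Glivec, just above the floor, and at 10.2 untreated, below it. Its log2 ratio of 0.015 is therefore only a bound. The neighbouring antisense gene ARRDC1-AS1 had signals of 38.6 with Glivec and 35.6 untreated (log2 ratio 0.12). ARRDC2, an adaptor of the same family, had a signal of 119.0 by its 1 probe set with Glivec, against 158.2 in untreated cells. This is a log2 ratio of -0.41, or 1.33-fold lower. In size, the ARRDC1 ratio was smaller than the pooled SD between probe sets of a gene (0.33), and the ARRDC2 ratio larger. That SD leaves out variation between cultures, so it cannot show whether either gene differed.

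**Figure D2:**
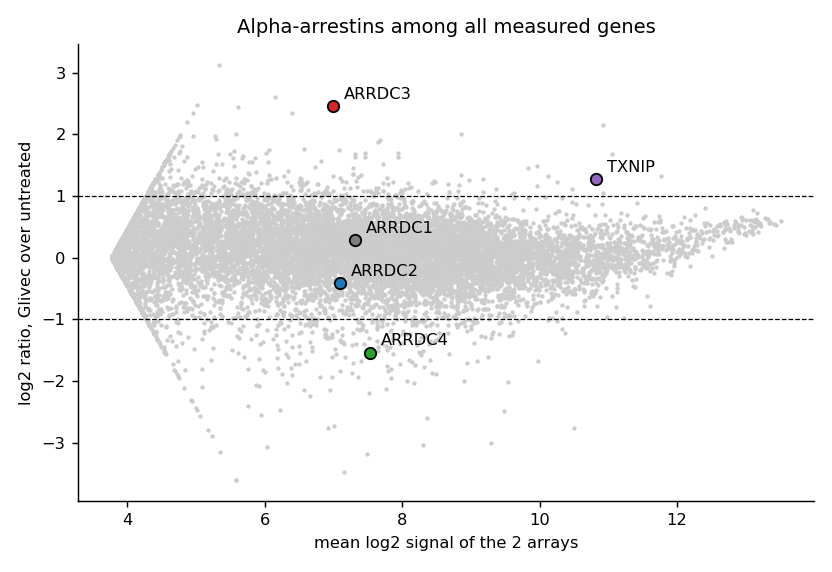
Log2 ratio of Glivec over untreated signal against the mean log2 signal of the 2 arrays for all 12705 measured genes (grey), with the 5 alpha-arrestins marked and dashed lines at 2-fold. ARRDC3 (2.46) and TXNIP (1.27) lie above the upper line, ARRDC4 (-1.54) below the lower one, and ARRDC1 and ARRDC2 within the bulk of genes.

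The promoter windows of all 5 genes were found, 8 windows in all, each from 250 bases before to 50 after a RefSeq start. The carbohydrate response element was present in 20 of 35116 windows of all genes (0.057%), and of the members' windows only the upstream one of TXNIP held it. Forkhead matches, found in 3.42% of all windows, were present in 1 of 2 windows of TXNIP and in 1 of 2 windows of ARRDC3. No match to the exact forkhead spelling GTAAACA lay in the windows of ARRDC1, ARRDC2 and ARRDC4. Any link between these matches and the signals was not tested. The E-box was found in 7.26% of all windows and, among members, in ARRDC4. CCAAT boxes, present in 34.6% of all windows, were in at least 1 window of every member. Both strands were searched, and an E-box can lie within a carbohydrate response element, as it does in none of these windows. A match is a string of letters and shows no binding, and these windows leave out distal sites.

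**Figure D3:**
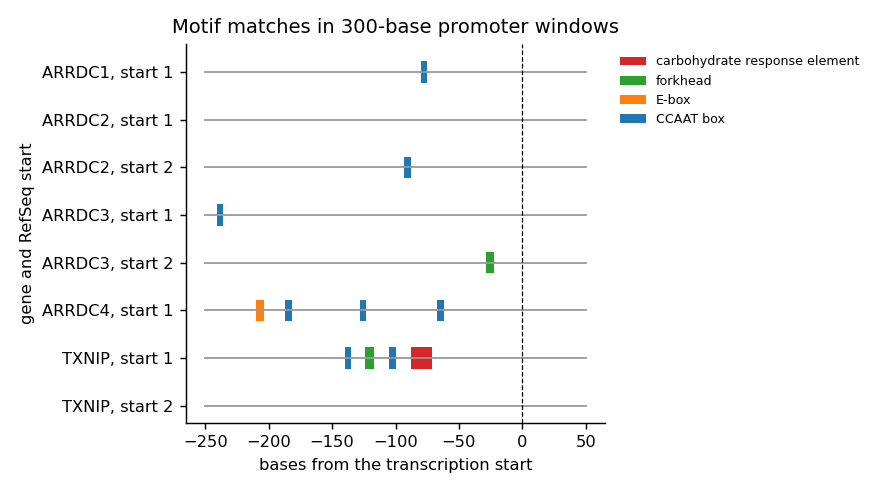
Matches to 4 motifs, as coloured bars, in the 300-base windows around each RefSeq start of the 5 genes, with distance from the start in bases (start 1 is the most upstream). TXNIP start 1 carries the carbohydrate response element and a forkhead match, ARRDC3 start 2 a forkhead match, and ARRDC4 an E-box.

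Genes that work with the alpha-arrestins, and other genes of the arrestin fold, were described as 6 lists, called partner lists for short. Of 44 measured genes in them, 1 was at least 2-fold higher and 0 lower by the brightest probe set, beside 3.13% and 2.63% of all measured genes. That 1, the cone arrestin gene ARR3, was at the floor in untreated cells (31.9 with Glivec against 9.79, at least 2.33-fold higher). With so few genes, nothing is read from these counts. All 6 list medians lay between -0.05 and 0.16, beside 0.10 for all measured genes.

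Of the factors named above, only the Mondo and MLX genes are described here, and the FOXO genes are not. All measured probe sets of MLXIP and MLX differed by less than 2-fold between the arrays. The RNA level does not show the activity of a factor. MLXIP, which encodes MondoA, had signals of 176.0 with Glivec and 129.5 untreated by its brightest probe set (log2 ratio 0.44), and 2 other probe sets gave 0.39 and 0.31. For MLX, its partner, the brightest probe set gave 469.6 with Glivec and 676.8 untreated (-0.53). The other measured MLX probe sets ranged from -0.86 to 0.42, so they disagree in sign. MLXIPL, the related ChREBP gene, was at or below the floor on both arrays.

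In the thioredoxin system, the 10 measured genes had a median log2 ratio of -0.03. TXN, the thioredoxin that TXNIP binds, was near equal at 3525 with Glivec and 3613 untreated (-0.04), and its second probe set was at 0.69. TXNRD1, the reductase that recycles thioredoxin, had 1250 with Glivec and 2040 untreated (-0.71). PRDX4, a peroxiredoxin of the endoplasmic reticulum, was the lowest of the list at -0.80, with TXNRD2 at -0.29 and PRDX6 at 0.22.

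Among ubiquitin ligases of the NEDD4 family and their adaptors, 9 of 11 were measured, with a median of 0.08. NEDD4 itself was at or below the floor on both arrays, and so was the brightest probe set of NEDD4L, of which 1 dimmer one stood at 14.8 in untreated cells. ITCH was at 0.11 (87.2 with Glivec against 80.7), with its 6 probe sets between -0.28 and 0.80. SMURF2 was at 0.13 by its brightest probe set, but at 1.27 (176.1 with Glivec against 73.3), 0.84 and 0.41 by the others. WWP1 and WWP2 were at -0.36 and -0.32, with other WWP2 probe sets up to 0.77. The lowest value was that of NDFIP2, a membrane adaptor of these ligases, with 629.5 with Glivec and 1036 untreated (-0.72) and 4 probe sets between -0.72 and -0.51. HECW1 had signals of 20.6 with Glivec and 13.5 untreated, the second below the floor.

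The 9 measured ESCRT genes, which serve vesicle budding, had a median of 0.08. TSG101 was at 0.02, VPS28 at 0.40, VPS37C at -0.46 with other probe sets up to 0.46, MVB12B at 0.31 with probe sets from -0.69 to 1.17, and VPS4B at 0.29.

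Other genes of the arrestin fold had a median of -0.05 over 7 of 9 genes. ARRB2 and the further arrestin-domain gene ARRDC5 had no probe set annotated to them alone and are not covered. ARRB1, which encodes beta-arrestin 1, had signals of 271.2 with Glivec and 386.9 untreated (-0.51), and all 7 of its probe sets were negative, from -0.84 to -0.28. VPS26C, a subunit of the retriever complex, was at -0.53 and -0.15 by its 2 probe sets, and the retromer subunit gene VPS26A was at -0.16.

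Among cargoes and binding partners, with a median of 0.16 over 7 genes, the glucose transporter gene SLC2A1 had a signal of 58.9 with Glivec, against 97.6 in untreated cells (-0.73). Its second probe set was below the floor on both arrays. NOTCH1, a receptor that ARRDC1 is known to act on, was at 0.87, and its other probe set was below the floor on both arrays. SLC11A2, an iron transporter, was at 0.21 with other probe sets down to -0.94. ITGB4 was at least 1.66-fold higher by 1 dim probe set (22.8 with Glivec), from the floor in untreated cells. The other ITGB4 probe sets were below the floor on both arrays.

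**Figure D4:**
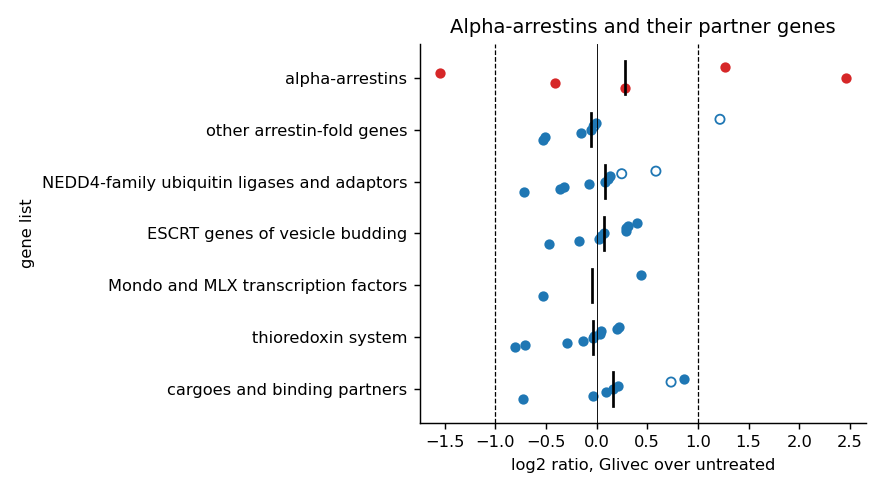
Log2 ratio of Glivec over untreated signal for the 5 alpha-arrestins (red) and the measured genes of 6 partner lists (blue), with open circles for bounds, black bars for list medians and dashed lines at 2-fold. By the brightest probe set of each gene, the alpha-arrestins lie from -1.54 to 2.46. The partner genes lie between -0.80 and 0.87 except ARR3, a bound at 1.22. Other probe sets, not drawn, reached 1.27 for SMURF2, 1.17 for MVB12B and -0.94 for SLC11A2. The members were selected on this contrast, so nothing is read from their wider spread.

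With 2 arrays, the genes most like ARRDC3 are those with similar signals on both. The nearest in the plane of log2 Glivec and log2 untreated signal were the yippee-like gene YPEL2 (249.8 with Glivec and 74.1 untreated, distance 0.52), the plakoglobin gene JUP (193.7 and 65.4, distance 0.68) and the mitotic phosphatase gene CDC25C (283.9 and 88.8, distance 0.72), which were 3.37-fold, 2.96-fold and 3.20-fold higher with Glivec. The distance is over 2 arrays and mixes probe brightness with the difference between the cultures.

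The directions of ARRDC3, TXNIP and ARRDC4 were the same under every scaling tried. With spike-in scaling TXNIP was at 0.53, below 2-fold, ARRDC2 was at -1.15, beyond 2-fold lower, and ARRDC1 was negative at -0.46.

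**Figure D5:**
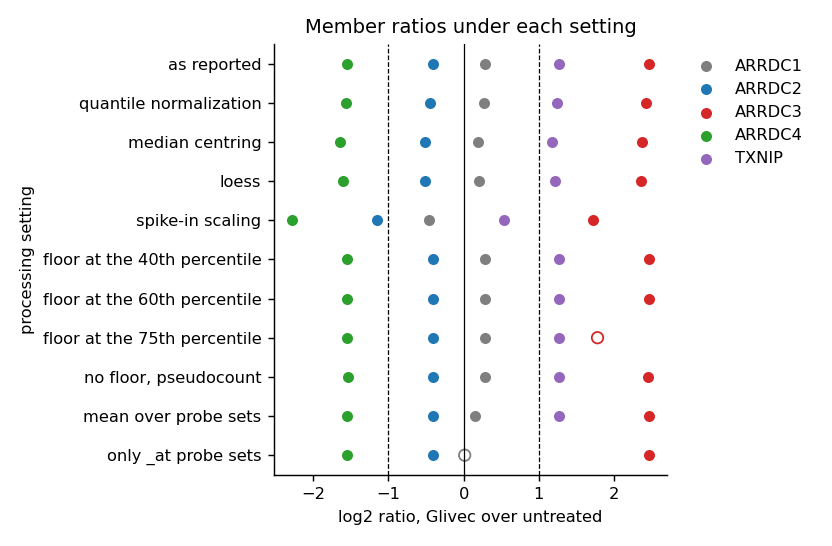
Log2 ratio of each alpha-arrestin under the processing as reported and 10 alternatives, with open circles where 1 array was at the floor and dashed lines at 2-fold. ARRDC3 lies at 1.72 or higher and ARRDC4 at -1.54 or lower throughout, while spike-in scaling moves all 5 to the left and TXNIP has no value with only _at probe sets.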

How the data were processed

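Expression was measured in 1 Glivec-treated and 1 untreated culture. The authors deposited 1 linear signal intensity per probe set and array, from MAS5 according to the labels and per the submitters' processing notes, whose version was not given in the sources used here. Both arrays had a 2% trimmed mean of 100.014, so they had been scaled before deposit. Each array holds 54675 probe sets, 62 of them controls. The number of arrays limits the precision. No detection calls were used.

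The platform's annotation, which can be old, gave 41097 probe sets 1 symbol and 1801 several; 11777 are unnamed here. Signals below the floor were raised to it before log2. A gene was its probe set of highest mean signal, with _x_at only where no other existed. A ratio with 1 array at the floor is a bound. The members and lists were chosen with earlier results of these data known. Named genes were the members and up to 4 genes per list with the largest ratios in size. Also named were 6 fixed genes (TXN, MLXIP, MLX, NEDD4, ITCH and SLC2A1) and the 3 genes nearest to ARRDC3. TSG101, PRG2, MPO, IL5RA, SIGLEC8, MLXIPL, NEDD4L, SMURF2, ARRB2, ARRDC5 and the antisense genes were added afterwards. The calculation was tested on simulated signals. Python 3.11.15, numpy 2.4.6, pandas 2.3.3, scipy 1.17.1, statsmodels 0.14.6 and matplotlib 3.10.9 were used.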

Additional observations from a re-analysis of the deposited data

How the results depend on the processing

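No paired analysis was possible because both groups hold a single array, and no replicate could be left out. A value is said to have moved when it changed by more than the pooled SD between probe sets, 0.33, and a count when it changed by more than 1.5 times. With spike-in scaling, which lowers every Glivec signal, the log2 ratios were -0.46 for ARRDC1, -1.15 for ARRDC2 and 1.72 for ARRDC3. ARRDC4 was at -2.28 and TXNIP at 0.53. Thus 1 member was at least 2-fold higher and 2 lower, beside 26 higher and 2291 lower of 11748 measured genes. The list medians there were -0.79 for other arrestin-fold genes, -0.82 for NEDD4-family ligases and -0.66 for ESCRT genes. They were -0.78 for Mondo and MLX factors, -0.77 for the thioredoxin system and -0.61 for cargoes, beside -0.60 for all genes. After loess (span 0.3) 207 genes were higher. Higher genes numbered 735 of 14952 for a floor at the 40th percentile, 234 of 10468 for the 60th and 91 of 7755 for the 75th. In the last, 176 were lower. With this highest floor ARRDC3 became a bound of 1.78, because its untreated signal lies below it. Without a floor and with a pseudocount of 0.375 (the 2nd percentile of signals), 2548 of 19775 genes were higher and 1961 lower. The Mondo and MLX median was then -0.53, since MLXIPL counts as measured. With only _at probe sets TXNIP has no value, so 1 member was higher, beside 317 of 9901 measured genes. The Mondo and MLX median was then 0.43, since MLX is read by a dim probe set of positive ratio. A threshold of 1.5-fold gave 1711 genes higher and 1058 lower. A threshold of 3-fold gave 56 and 86 of the same 12705 genes, with 1 member higher and 0 lower. Quantile normalization, median centring and the mean over probe sets moved none of these values. Counts of members lower under alternatives were added after seeing the data. Ratios of dim probe sets are limited by the floor.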
